A study of Mus musculus with 10 samples.

Results

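The regions described here are stretches of accessible chromatin of intermediate strength that were called in young muscle stem cells treated with prostaglandin E2 (PGE2) and had no accessible region nearby in aged cells given the same treatment. Rows of each deposited list that touched or overlapped were merged into regions, and the summit with the highest −log10 q-value was kept. A young region was taken if its fold over background at that summit was at least 5 and no aged region lay within 1 kb. The rule found 1643 regions among the 131656 regions of the young list, which is 2.54% of the 64745 young regions of at least 5-fold. They are called young-only regions below, a name that says only that the aged list held no call within 1 kb. Since they were selected on these measured values, the young fold and the presence of a call at each age, both are given as description and carry no test.

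Cells were α7-integrin+ CD34+ muscle stem cells sorted by FACS from C57BL/6 mice, with no genetic change named in the labels, and open DNA was mapped by ATAC-seq, which uses a transposase to cut accessible sites and attach sequencing adapters. The labels give 3 aged PGE2, 2 young PGE2, 3 aged vehicle and 2 young vehicle libraries. Aged mice were 20 to 25 months old and young mice 8 to 20 weeks, and all cells were held for 2 h in DMEM with FBS and bFGF, with the vehicle being 0.1% DMSO. The values used came from 1 list for aged PGE2 cells and 1 list for young PGE2 cells, and vehicle cells were not analysed here. An age difference that exists without PGE2 cannot be told apart from one in the response to it. Values per library were not used here, so no difference between ages has a replicate error or a p-value, and how many mice stand behind a list is not given in the sources used here. In lists made from many cells, fewer cells with an open site and a less open site in each cell cannot be told apart.

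Muscle stem cells, also called satellite cells, lie dormant under the basal lamina of the muscle fibre and divide after injury to rebuild it. PGE2, a lipid made from arachidonic acid after injury, binds G protein-coupled receptors, some of which raise cAMP, and stimulates the expansion of these cells. Open chromatin in a mammalian cell falls mainly at gene promoters, which are usually open in many cell types, and at distal elements such as enhancers, which vary more between cell types and states.

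Most young-only regions lay away from promoters, and those at a gene start could be shown with their sequence. The windows below are RefSeq promoter windows of GRCm38.p6 (mm10), 300 bases each, running from 250 bases before to 50 bases after an annotated start, 5′ to 3′ on the gene's strand. They are the 6 windows of protein-coding genes overlapped by the strongest young-only regions, and that of Ptgs1. The Ptgs1 window is shown because the gene belongs to the PGE2 pathway. Windows of other genes are not shown, among them 1 overlapped by a region of 10-fold or more. Further windows of named gene-end members, at Nckap5 and Ica1, were overlapped by weaker regions and are not shown. Diras2, a Ras-family GTPase, has its window at chr13:52530787-52531086 on the minus strand. Npy4r, a receptor for pancreatic polypeptide, has its window at chr14:34152370-34152669 on the minus strand. H3c4, a replication-dependent histone H3 gene, has its window at chr13:23575513-23575812 on the plus strand. Shroom3, an actin-binding protein of epithelial shape change, has its window at chr5:92809132-92809431 on the plus strand. St6galnac3, a sialyltransferase, has its window at chr3:153725084-153725383 on the minus strand. B3galt5, a galactosyltransferase, has its window at chr16:96280782-96281081 on the plus strand. Ptgs1, the constitutive cyclooxygenase that makes the precursor of PGE2, has its window at chr2:36230176-36230475 on the plus strand. Capitals mark matches to AP-1 (TGANTCA), CRE (TGACGTCA), the CRE core (TGACG), E-box (CAGCTG), NFI (TTGGC, any 5 bases, GCCAA), TEAD (CATTCC), RUNX (TGTGGT), heat shock (GAA, any 2 bases, TTC, any 2 bases, GAA) and GC box (GGGCGG) letters on either strand. The CRE contains the CRE core, so a CRE match counts for both.
Diras2: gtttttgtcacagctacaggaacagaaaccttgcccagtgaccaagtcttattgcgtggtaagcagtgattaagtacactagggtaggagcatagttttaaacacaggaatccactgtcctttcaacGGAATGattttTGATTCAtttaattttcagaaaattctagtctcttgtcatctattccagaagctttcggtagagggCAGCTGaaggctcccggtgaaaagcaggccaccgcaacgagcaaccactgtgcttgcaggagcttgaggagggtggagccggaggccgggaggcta
Npy4r: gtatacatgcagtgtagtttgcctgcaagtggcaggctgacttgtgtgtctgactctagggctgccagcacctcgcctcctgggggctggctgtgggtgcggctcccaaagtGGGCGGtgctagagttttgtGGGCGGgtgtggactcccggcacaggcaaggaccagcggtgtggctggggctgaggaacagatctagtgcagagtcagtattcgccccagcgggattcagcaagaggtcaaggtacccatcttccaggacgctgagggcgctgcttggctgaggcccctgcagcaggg
H3c4: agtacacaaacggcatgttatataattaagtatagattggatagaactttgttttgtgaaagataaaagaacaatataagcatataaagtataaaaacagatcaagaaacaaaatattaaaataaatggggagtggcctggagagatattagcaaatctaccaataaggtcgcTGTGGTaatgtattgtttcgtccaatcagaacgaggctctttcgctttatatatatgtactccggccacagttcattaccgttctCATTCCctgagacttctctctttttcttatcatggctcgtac
Shroom3: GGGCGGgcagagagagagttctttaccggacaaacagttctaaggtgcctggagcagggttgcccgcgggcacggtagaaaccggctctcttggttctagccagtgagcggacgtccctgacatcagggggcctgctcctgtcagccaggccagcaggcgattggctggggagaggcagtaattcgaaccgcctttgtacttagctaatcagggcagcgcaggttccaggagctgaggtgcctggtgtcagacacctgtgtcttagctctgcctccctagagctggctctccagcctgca
St6galnac3: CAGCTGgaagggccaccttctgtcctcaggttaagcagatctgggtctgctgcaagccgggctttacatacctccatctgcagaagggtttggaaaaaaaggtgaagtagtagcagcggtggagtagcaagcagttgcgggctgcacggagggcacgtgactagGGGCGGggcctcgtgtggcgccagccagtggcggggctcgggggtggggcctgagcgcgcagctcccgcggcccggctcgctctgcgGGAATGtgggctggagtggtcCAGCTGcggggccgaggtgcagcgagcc
B3galt5: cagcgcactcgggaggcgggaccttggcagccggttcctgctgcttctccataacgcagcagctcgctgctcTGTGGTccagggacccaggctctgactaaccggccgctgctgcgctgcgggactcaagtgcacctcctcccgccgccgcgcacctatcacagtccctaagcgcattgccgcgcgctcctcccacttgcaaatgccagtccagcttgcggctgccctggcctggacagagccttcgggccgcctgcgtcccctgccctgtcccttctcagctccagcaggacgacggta
Ptgs1: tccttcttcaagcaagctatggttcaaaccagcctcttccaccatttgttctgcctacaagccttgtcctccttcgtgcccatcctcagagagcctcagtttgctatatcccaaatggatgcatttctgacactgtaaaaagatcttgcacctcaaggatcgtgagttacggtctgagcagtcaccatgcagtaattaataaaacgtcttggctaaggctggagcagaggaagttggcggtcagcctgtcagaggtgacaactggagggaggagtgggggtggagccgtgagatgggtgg
The strongest summit lay close to the annotated start in each of these windows. It was 39 bases past the start at Diras2 and 105 bases past it at Ptgs1. The summit lay before the start at the other genes, by 39 bases at St6galnac3, 46 at H3c4, 123 at B3galt5, 127 at Npy4r and 141 at Shroom3. The windows differed in base composition. GC content was 34.7% at H3c4, 47.7% at Diras2, 50.7% at Ptgs1, 60.3% at Shroom3, 62% at Npy4r, 66% at St6galnac3 and 67.3% at B3galt5. Diras2 held an AP-1 match that began 112 bases before the start, beside a TEAD match at 123 bases and an E-box at 46 bases before it. The windows of Npy4r and Shroom3 held GC box letters and no other match, and Ptgs1 held none of the 9 motifs.

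Young-only regions were of middling strength in the young list. The fold ranged from 5.02 to 14.0, with a median of 5.77 and quartiles of 5.33 and 6.60. That placed them between percentile 51.0 and percentile 77.9 of all young regions ranked by fold, with the median at 55.7. Folds moved in equal steps of 1 fragment, and the fragment pileup at a summit could be recovered as 113 at the weakest, 130 at the median and 317 at the strongest young-only region. The −log10 q-value of the summit ran from 41.5 to 241, with a median of 54.2, and it tests the peak against the caller's background, not age. The uniform background came to 19.8 fragments in the aged list and 21.7 in the young list. The smallest summit called held 37 fragments (1.83-fold) in the aged list and 39 fragments (1.76-fold) in the young list. Aged sites with fewer fragments than that are not in the aged list, and signal below the caller's threshold was not analysed here. Fragments were amplified by PCR without molecular identifiers, and each interval given below reflects counting of regions alone, with no spread between mice in it.

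The distance to the nearest aged region had a median of 8277 bp and ran from 1012 bp to 1114373 bp. It was 1 to 2 kb for 191 young-only regions, 2 to 5 kb for 397, 5 to 10 kb for 327, 10 to 50 kb for 571, 50 to 100 kb for 94 and over 100 kb for 63. At the fold limit, 66 members had the lowest fold of 5.02, among them regions at Slc19a3, Dgkd, Qsox1, Gm7694 and Aldh8a1. Just below it, 62 regions of 4.97-fold without an aged region were not taken, among them regions in Nckap5, Cdc73, Hhat and Syne1 and 1 with no gene within 100 kb. At the distance limit the nearest members lay 1012 bp (Rbbp8) and 1016 bp (Grid1) from an aged region. Regions 993 bp (Kcnab2), 991 bp (Got2) and 990 bp (Pcsk6) from one were not taken.

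The share of regions without a counterpart fell with strength in both lists. Of regions of any fold, 6729 of 117284 aged regions (5.74%) and 25040 of 131656 young regions (19%) had no counterpart of the other age closer than 1 kb. At 2- to 3-fold the share was 14.4% in the aged list and 40.3% in the young list, and at 4- to 5-fold it was 1.98% and 21.5%. In the 5- to 6-fold class it was 0.728% (95% exact Clopper-Pearson interval 0.541 to 0.958) of aged regions and 11.8% (11.1 to 12.5) of young regions. That class held 970 of the 1643 young-only regions. A further 394 were 6- to 7-fold, which is 6.24% (5.66 to 6.87) of young regions of that strength. The 7- to 8-fold class held 171 (3.60%), the 8- to 10-fold class 83 (1.14%), and 25 were 10-fold or more (0.0655%). Of young regions of 15-fold or more none was young-only, 0 of 6029 at 15- to 20-fold and 0 of 21345 stronger ones. The same rule turned round, aged regions of at least 5-fold with no young region within 1 kb, found 80 of 52056 aged regions (0.154%). A fold is relative to its own list's background, so the same fold limit is not the same openness at both ages.

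**Figure D1:**
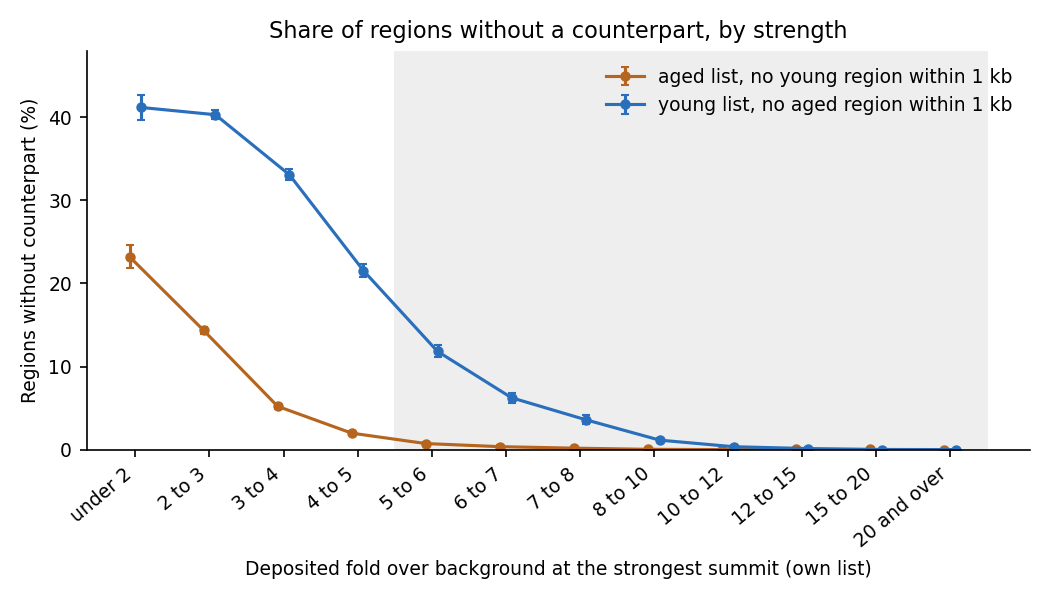
Share of regions with no counterpart within 1 kb in the list of the other age (y axis, percent) by the deposited fold over background of the region's own list (x axis), for the aged list (brown) and the young list (blue), with 95% exact intervals over regions; the shaded classes are those of at least 5-fold. Both curves fall with strength, and the young curve lies above the aged one up to 12- to 15-fold, where the shares are 0.0227% (aged) and 0.125% (young).

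Most young-only regions were narrow and had 1 summit. Because width rises with fold, they were set beside the 63102 young regions of at least 5-fold with an aged region within 1 kb, weighted to the same 5 fold classes. These are called comparison regions below. The median width was 349 bp (quartiles 255 and 498.5) in young-only regions and 514 bp (356 and 731) in the weighted comparison regions. In each fold class the young-only median was the lower one. It was 307.5 bp against 474 bp at 5- to 6-fold, 413 bp against 583 bp at 7- to 8-fold, and 569 bp against 1243 bp at 10-fold or more. The last class has no upper limit, so strength is not held equal in it. Its young-only regions reached 14.0-fold and its comparison regions 2493-fold. At least 2 summits were called in 26.5% of young-only and 47.1% of comparison regions, and 1.77% of young-only regions against 10.1% of comparison regions were 1000 bp or wider. Width comes from the same peaks as the fold, so it is given as description.

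**Figure D2:**
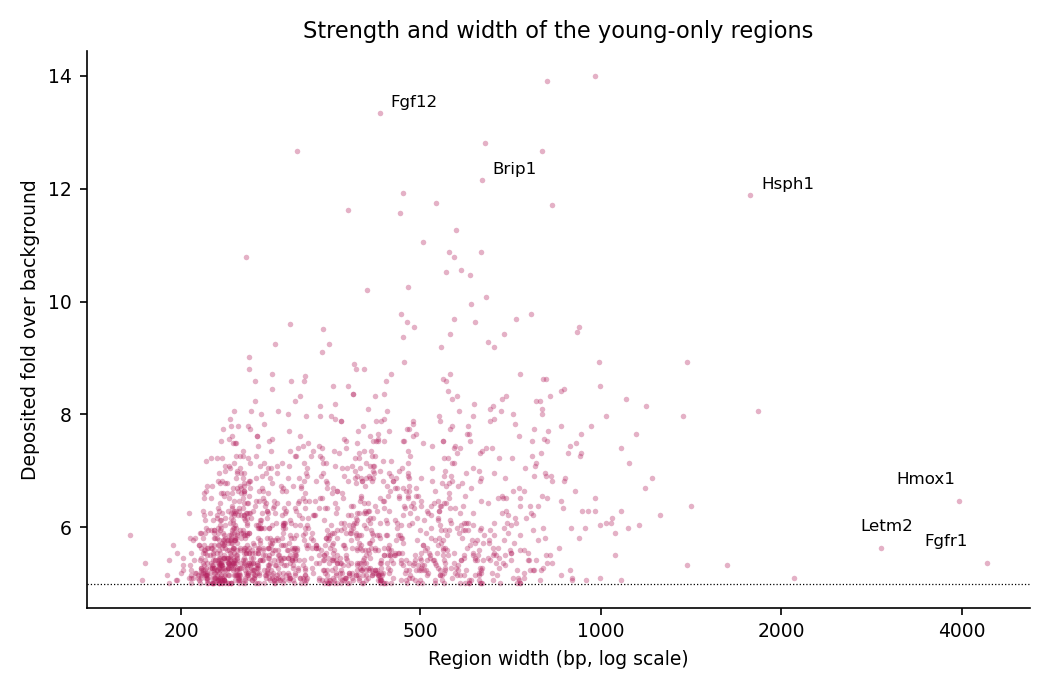
Each point is 1 of the 1643 young-only regions, by width (x axis, bp, log scale) and deposited fold over background (y axis); the dotted line is the 5-fold limit of the rule. Most points lie under 500 bp and near the limit, while the widest regions, in Fgfr1 (4402 bp) and at Hmox1 (3951 bp), have folds of 5.37 and 6.47, and Hsph1 combines 1777 bp with 11.9-fold.

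The strongest young-only regions were mostly inside genes or far from any gene. The strongest lay at chr1:128856646-128857625 (14.0-fold), 264347 bp from the nearest gene end, that of Cxcr4, the receptor for the chemokine Cxcl12. The next lay at chr7:75955415-75956227 (13.9-fold), 1087 bp from an aged region. The strongest region inside a gene span was in Fgf12, an intracellular relative of the fibroblast growth factors that modulates sodium channels, at chr16:28450558-28450985 (13.3-fold). It lay 4483 bp from the gene's nearest annotated start and 2164 bp from the nearest aged region. Others inside spans were in Hydin, a protein of motile cilia (12.8-fold, 51348 bp from an aged region), and Ppp4r1, a subunit of protein phosphatase 4 (12.7-fold). Zscan18, a zinc finger protein gene, held a further one of 12.7-fold. Cep135, a centriole protein, held one of 11.9-fold, Agbl4, a carboxypeptidase acting on tubulin, one of 11.7-fold, and Tomm20l one of 11.8-fold. Grip1, a scaffold protein for glutamate receptors, held one of 11.3-fold, Nsun2, an RNA cytosine methyltransferase, one of 11.0-fold, Nod2, a sensor of bacterial cell wall fragments, one of 10.9-fold, and Gm3776 one of 10.8-fold. A region of 10.9-fold lay 8753 bp past the 3′ end of 1810013L24Rik. Among the 20 strongest, 6 had no gene end within 100 kb and lay outside every gene span. The 4 of these not yet named had folds of 11.6 (chr13:37238040-37238418 and chr4:52211061-52211523), 10.8 (chr6:14398982-14399550) and 10.6 (chr6:143437323-143437906). Among the 80 aged regions found by the mirrored rule, the 3 strongest were at chr16:98107441-98107619 (15.3-fold), in Anks1b (12.1-fold) and in Ostn, a muscle-secreted peptide gene (8.89-fold).

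Few young-only regions were at a gene end, which means an annotated start where the promoter table had one for the gene and otherwise either end of the gene's span. Of the 1643 regions, 52 came within 1 kb of a gene end (3.16%, interval 2.37 to 4.13), against 6.24% of the weighted comparison regions. Counting annotated starts alone, 34 (2.07%) came within 1 kb, against 4.38% of comparison regions. Without the weighting by fold 21.0% of comparison regions were at a gene end, since stronger regions are more often there. Distances of 1 to 10 kb held 25.3% (23.2 to 27.5) of young-only and 21.5% of comparison regions. Distances of 10 to 100 kb held 53.4% (51.0 to 55.9) against 52.3%, and over 100 kb 18.1% (16.2 to 20.0) against 20.0%. The summit was inside a protein-coding gene span in 57.6% (55.2 to 60.0) of young-only and 56.4% of comparison regions. It was outside every span and within 10 kb past a 3′ end in 6.21% against 5.66%. A 3′ end was known only for the 17491 of 21896 protein-coding genes with an annotated start, so these 2 shares are lower bounds. The comparison value lies outside the interval for gene ends and for 1 to 10 kb, just at its upper bound for over 100 kb, and inside it for 10 to 100 kb and for gene spans. Of the 80 mirrored aged regions, 2 (2.5%) were at a gene end and 27 (33.75%) lay over 100 kb from one.

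**Figure D3:**
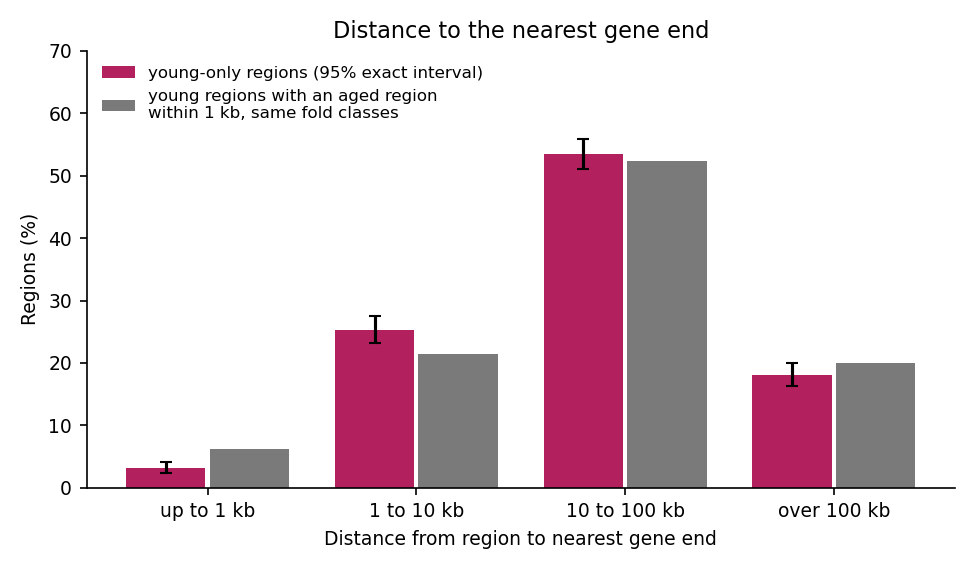
Share of regions (y axis, percent) by distance from the region to the nearest gene end (x axis), for the 1643 young-only regions (left bars, 95% exact interval over regions) and for comparison regions weighted to the same fold classes (right bars). The young-only bar is lower up to 1 kb (3.16% against 6.24%) and higher at 1 to 10 kb (25.3% against 21.5%).

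The young-only regions at gene ends belonged to genes of varied known roles. The strongest was at Shank2, a scaffold protein of synapses, at chr7:143977955-143979348, with 8.94-fold, 1394 bp and 5 summits. Diras2 and Npy4r followed with 8.58-fold each, at 320 bp and 552 bp wide. A region of 8.45-fold inside the span of Sgcb, the β-sarcoglycan of the dystrophin complex, lay 779 bp from the start of the neighbouring gene Lrrc66. H3c4 had 8.32-fold, with an aged region only 1051 bp away, so this start is near the distance limit of the rule. Fbn2, a fibrillin of extracellular microfibrils, had a region of 8.06-fold and 1829 bp at its higher-numbered end, chr18:58209045-58210873, 174250 bp from any aged region. Shroom3 had 7.75-fold, Trim71, an RNA-binding ubiquitin ligase of embryonic cells, 7.44-fold, St6galnac3 7.31-fold and B3galt5 7.0-fold. Nckap5 had 6.91-fold, and Ica1, an autoantigen of pancreatic islets, 6.87-fold. St6galnac3 (110336 bp), B3galt5 (49907 bp) and Ica1 (40683 bp) were far from any aged region, whereas Npy4r (1940 bp) was close to one.

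A start without an aged region was in several genes not the only start. Of the 34 genes with a young-only region within 1 kb of a start, 13 had at least 2 annotated starts. In 8 of those 13 an aged region lay at a start away from the young-only region, namely Shroom3, Nckap5, Schip1, Ccdc116, Ktn1, Rfx4, Klhl5 and Gabrb1. The remaining genes had no aged region within 1 kb of any annotated start. They included Runx3, a transcription factor of the Runt family (5.90-fold), Apobec2, a muscle-rich relative of the cytidine deaminases (6.34-fold), and Lmod1, an actin filament nucleator of smooth muscle (5.11-fold). They also included Ttn, the giant spring protein of the sarcomere (6.03-fold), Tnni3, cardiac troponin I (5.50-fold), and Ifng, interferon gamma (5.19-fold). Some of these regions were near the distance limit, with an aged region 1232 bp away at Ttn and 1489 bp away at Runx3. That distance was 2518 bp at Tnni3, 2915 bp at Ifng, 10388 bp at Lmod1 and 21431 bp at Apobec2.

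The promoter windows covered at least in part by a young-only region numbered 39, from 38 genes, and were compared with the 14962 windows covered by comparison regions. Their median GC content was 50.7%, against 57.3% in comparison windows weighted to the same fold classes and 52.7% in all 32851 windows of the table. The ratio of observed to expected CpG had a median of 0.360, against 0.460 and 0.384. A GC content of 55% or more was found in 16 of the 39 windows (41.0%), against 57.3% and 43.4%. As a set, the 39 young-only windows were thus nearer to the whole table than to open promoters of the same strength. The set mixed gene types. Most windows of protein-coding genes among the 39 had a GC content of 55% or more, and most windows of other genes did not. The comparison windows were not split by gene type, so a difference for protein-coding promoters alone was not tested.

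Motif letters were counted in the same windows. AP-1 letters were in 8 of 39 young-only windows (20.5%, interval 9.30 to 36.5), against 8.51% of weighted comparison windows and 7.81% of all windows. E-box letters were in 13 (33.3%, 19.1 to 50.2) against 21.0% and 16.3%, and TEAD letters in 11 (28.2%, 15.0 to 44.9) against 13.4% and 14.7%. GC box letters were in 16 (41.0%, 25.6 to 57.9) against 46.0% and 35.7%, RUNX letters in 6 (15.4%) against 16.1% and 16.8%, and CRE core letters in 4 (10.3%) against 16.6% and 20.8%. The whole CRE, NFI and heat shock letters were in 0 of the 39, with an exact upper bound of 9.03%. They were in 1.71%, 0.204% and 0.965% of comparison windows. The interval lies just above the comparison value for AP-1 (9.30 against 8.51%) and TEAD (15.0 against 13.4%), and includes it for the others. All the motifs were looked at together and the comparison value has counting error of its own, so enrichment was not tested. Among windows of protein-coding genes, AP-1 letters were at Diras2 and Ovgp1 alone, so most of the 8 were at other genes. TEAD letters in protein-coding windows were at Diras2, H3c4, St6galnac3, Hs3st5, Apobec2 and Lmod1. The weights rest on few windows in the low fold classes, 288 comparison windows at 5- to 6-fold beside 21 young-only ones. A match of letters is not a bound site, and base composition, which differed between the sets, was not held equal.

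Beyond the young-only regions themselves, their surroundings held fewer aged regions for each young one, a look taken after the values had been seen. Distances from 5 to 50 kb around the summit were not used by the rule. There, young-only regions had on average 6.09 aged and 7.86 young regions, a ratio of 0.774. Comparison regions of the same fold classes had 9.97 aged and 10.9 young, a ratio of 0.911. Over the 19 autosomes the ratio was 0.771 ± 0.0692 (SD; 0.575 to 0.865) around young-only regions and 0.910 ± 0.0262 (0.870 to 0.965) around comparison regions. These SDs are over chromosomes of the same lists, not over replicates. No aged region at all lay at 5 to 50 kb for 179 young-only regions (10.9%), against 3.96% of comparison regions. The 80 mirrored aged regions had 7.24 aged and 5.2 young regions around them, a ratio of 1.39.

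**Figure D4:**
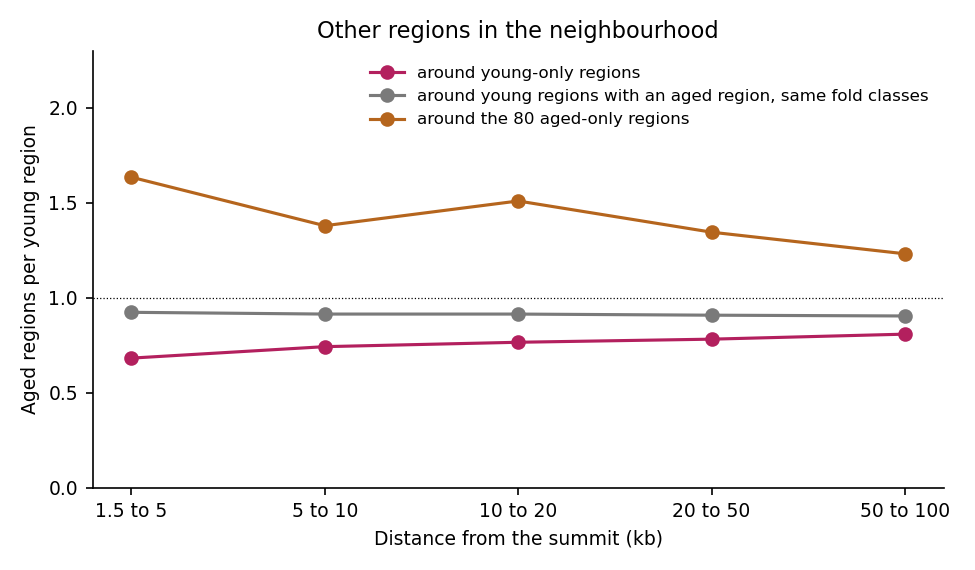
Aged regions per young region (y axis) in 5 classes of distance from the summit (x axis, kb), around the 1643 young-only regions (magenta), around comparison regions weighted to the same fold classes (grey) and around the 80 mirrored aged-only regions (brown). The young-only line lies lowest in every class and climbs with distance, 0.683 at 1.5 to 5 kb and 0.809 at 50 to 100 kb, while the comparison line stays between 0.904 and 0.924.

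The neighbouring young regions were also more often without an aged region themselves. At 5 to 50 kb, 25.8% of the young neighbours of young-only regions had no aged region within 1 kb. The share was 15.7% of the neighbours of comparison regions and 19% of all young regions. Around young-only regions it was higher than around comparison regions in 19 of 19 autosomes, which share the same lists and are not replicates. Lack of an aged region is the measure that the rule used, and young-only regions close together count as each other's neighbours. These shares are therefore description. Of the neighbours of at least 5-fold, 4.86% were young-only regions themselves, against 1.63% around comparison regions. Over all young regions of at least 5-fold the share was 2.54%. Young-only regions stood in thinner surroundings, since 52.9% (50.4 to 55.3) had another young region of at least 5-fold within 10 kb, against 70.4% of comparison regions. Another young-only region lay within 10 kb of 77 (4.69%) and within 50 kb of 299 (18.2%). Chromosomes differed mildly. Young-only regions made up 18.5 per 1000 young regions of at least 5-fold on chromosome 15 (13.9 to 24.1) and 32.2 on chromosome 11 (26.9 to 38.1), the lowest and highest autosomes. Chromosome X had 42, or 30.2 per 1000 (21.8 to 40.6), and chromosome Y 0 of 18.

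Most young-only regions stood alone. With gaps of up to 50 kb, 1344 were single, 115 runs held 2, 16 runs held 3, 4 held 4 and 1 held 5. The run of 5 covered 95.6 kb at chr11:61024851-61120406, along Kcnj12, an inward rectifier potassium channel, and Tnfrsf13b, the TACI receptor of B cells. Its folds ran from 5.11 to 7.66, and the stretch held 4 aged and 14 young regions in all. The runs of 4 lay in Tiam1 (0 aged and 6 young regions), Limch1 (2 and 8), Exoc6 (3 and 8) and across Vapa and Rab31 (16 and 40). Among the runs of 3, that in Gcnt2 (0 aged and 4 young) also held no aged region. So did those with Ccdc71l (0 and 3) and Rapgef5 (0 and 5) as the nearest gene, at least 56248 and 74074 bp from a start.

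Counted by gene, 1441 young-only regions (87.7%) had the summit inside a span or a gene end within 100 kb, and they were assigned to 1262 of 21896 protein-coding genes (5.76%). Of these genes 1124 had 1, 110 had 2 and 28 had 3 or more. Tiam1, an activator of the small GTPase Rac, had the most, 8 of its 14 assigned young regions of at least 5-fold. Nckap5 had 6 of 15, and Limch1, a protein of actin stress fibres, 5 of 15. Kcnj12 had 4 of 6, Cacna1c, the pore subunit of the L-type calcium channel, 4 of 18, and Exoc6, a subunit of the exocyst, 4 of 11. Within the gene spans the numbers of aged and young regions of any fold were 10 and 28 at Nckap5, 10 and 27 at Limch1, 2 and 10 at Kcnj12, 23 and 39 at Cacna1c, and 5 and 11 at Exoc6. The genes with 3 included Brip1, a helicase that works with BRCA1 (3 of 7, 5.90- to 12.1-fold), Tmem182, a membrane protein of muscle cells (3 of 9, 5.15- to 9.64-fold), and Ccdc71l (3 of 4, 6.38- to 9.64-fold). They also included the axon guidance receptor gene Robo1 (3 of 23), the sodium-calcium exchanger gene Slc8a1 (3 of 5) and the collagen gene Col24a1 (3 of 4). Kcna5, Kcnq5, Itpr2, Nav2, Nav3, Aipl1, Glis1, Nsd3, Slc7a1, Depdc1b, Gcnt2, Sae1, Cldn23, Stox2, Tet2 and Rgs6 had 3 each too, making up from 3 of 46 (Nav2) to 3 of 6 (Slc7a1) of the assigned young regions of at least 5-fold.

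Tiam1 showed the pattern within a single gene, and was singled out after its values had been seen. Its span, chr16:89787111-90145600, covers 358 kb. Inside it the aged list held 4 regions and the young list 21. The young-only regions had folds of 5.02, 5.99, 6.07, 6.21, 8.14, 8.72 and 10.1 inside the span, and 5.11 at chr16:89757457-89757677 outside it. The strongest, 10.1-fold, lay at chr16:89924399-89925041, 79537 bp from the nearest aged region. Both lists had a strong region near the higher-numbered end, of 43.9-fold in the aged list and 98.9-fold in the young list. Both lists also had regions near 48.6 kb (6.20-fold aged, 27.2-fold young) and 57.7 kb (3.46-fold aged, 13.7-fold young) from the lower-numbered end. At these shared sites the aged fold, on the scale of its own list, was the lower one. The stretch between 57.7 kb and the strong region at 357 kb held young calls alone. Whether aged signal lay there below the caller's threshold was not tested.

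**Figure D5:**
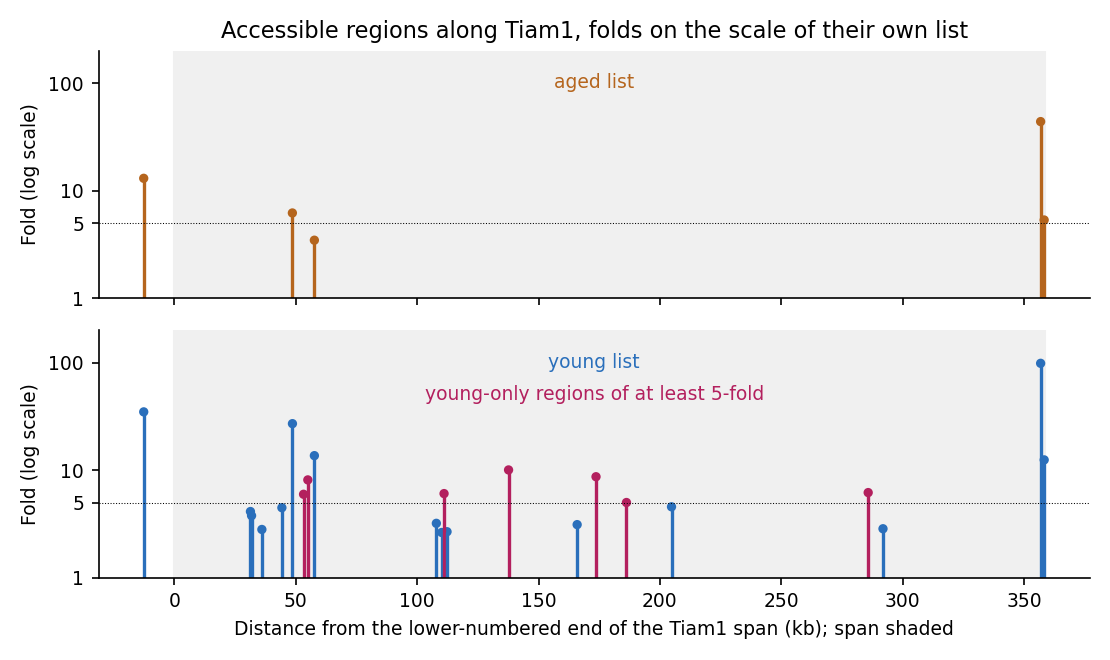
Accessible regions along Tiam1 by distance of the summit from the lower-numbered end of the gene's span (x axis, kb, span shaded), with the deposited fold over background on a log scale (y axis) in the aged list (upper panel, brown) and the young list (lower panel, blue, young-only regions of at least 5-fold in magenta; dotted line at 5-fold). Folds are on the scale of their own list; the aged list has 4 regions in the span and the young list 21.

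Wider young-only regions were more often at a gene end, a split by width that was looked at after the values were seen. The share at a gene end was 1.82% (0.946 to 3.16) of the 658 regions under 300 bp, 1.56% (0.717 to 2.95) of the 576 of 300 to under 500 bp, 6.58% (4.30 to 9.56) of the 380 of 500 to under 1000 bp, and 20.7% (7.99 to 39.7) of the 29 of 1000 bp or more, which is 6 regions. The summit was inside a gene span in 21 of those 29 (72.4%, 52.8 to 87.3), an interval that includes the 58.1% of regions under 300 bp. The widest was in Fgfr1, a fibroblast growth factor receptor, at chr8:25563943-25568344, with 4402 bp, 13 summits and 5.37-fold, 1644 bp from an aged region. Nearby Letm2 held one of 2936 bp, 10 summits and 5.63-fold. At Hmox1, heme oxygenase 1, which degrades heme in stressed cells, a region of 3951 bp with 14 summits (6.47-fold) covered 58 bp of the span and 3893 bp beyond its higher-numbered end. At Vapa, a tether protein of the endoplasmic reticulum, one of 2102 bp had its summit 5635 bp past the gene's 3′ end (5.11-fold). In Hsph1, a chaperone of the Hsp110 family, one of 1777 bp with 5 summits (11.9-fold) began 862 bp inside the 3′ end of the gene. Ulbp1, a stress ligand for natural killer cells, had one of 1621 bp lying 52668 bp below its span, and Rassf9 one of 1413 bp. Regions past a 3′ end were 5.47% of those under 300 bp and 6.90% (2 regions, 0.846 to 22.8) of those of 1000 bp or more. Genes without an annotated start, such as Hmox1, had no known 3′ end and are not in these shares.

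Gene lists for muscle stem cell biology and PGE2 signalling held between 1 and 6 young-only regions each. Of all assigned young regions of at least 5-fold 2.48% were young-only, and each list's share is given beside that value. The 27 quiescence genes had 2 of 288 (0.694%, interval 0.0842 to 2.49). They were in Itga7, the integrin chain used in the sort (5.63-fold), and 41205 bp from the start of Col5a1, a collagen chain (5.72-fold). The niche and adhesion list had 1 of 203 (0.493%, 0.0125 to 2.71), 52187 bp from Lama4, a laminin chain (5.41-fold). PGE2 and cAMP signalling had 5 of 284 (1.76%, 0.574 to 4.06) in 4 of 36 genes. These were Ptgs1 at its start (5.59-fold), Pde4d, a cAMP phosphodiesterase (5.19- and 5.11-fold), Prkar2b, a regulatory subunit of protein kinase A (5.02-fold), and Abcc4, a transporter that exports PGE2 and cAMP (5.06-fold). The Ptgs1 region, chr2:36230276-36230821, was 4137 bp from an aged region. Each of these 3 intervals includes the 2.48% of all genes. Counted by gene, 7.41% of quiescence genes, 5% of niche genes and 11.1% of PGE2 and cAMP genes had a young-only region, against 5.76% of all genes. None of the receptor genes Ptger1 to Ptger4 in the list had a young-only region. An aged region was at a gene end of 30 of the 36 PGE2 and cAMP genes and a young region at 33. Over all 21896 protein-coding genes the numbers were 13976 (aged) and 14498 (young). Those of the list with a young and no aged gene-end region were Ptger3, Ptgs1 and Rapgef4.

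Genes of muscle differentiation had 6 of 101 (5.94%, 2.21 to 12.5), in 4 of 22 genes. Actc1, cardiac α-actin, had 7.62- and 6.47-fold regions at 34440 and 6847 bp from its start, and Ttn 7.57-fold inside the gene and 6.03-fold at its start. Mef2c, a muscle transcription factor, had 5.85-fold and Myh3, embryonic myosin heavy chain, 5.19-fold. An aged region was at a gene end of 13 of these 22 genes and a young region at 18. Those with a young and no aged gene-end region were Mymk and Mymx, which drive myoblast fusion, Ttn, Actc1 and Myh8. Over all 21896 protein-coding genes the numbers were 13976 (aged) and 14498 (young). DNA repair genes had 4 of 36 (11.1%, 3.11 to 26.1), of which 3 were in Brip1, with folds of 12.1, 8.10 and 5.90. The interval of muscle differentiation includes the value over all genes. That of DNA repair lies above it, with 3 of its 4 regions in a single gene.

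Cell cycle genes had 4 of 99 (4.04%), assigned to Mycn (7.13-fold), Cdk1 (6.82-fold), Cdk2 (6.07-fold) and Mcm2 (5.68-fold). Those of Mycn and Cdk1 lay 67703 and 82199 bp from the gene's nearest start. Assignment was by position alone, and whether a region acts on the gene was not tested. The 3 of 108 (2.78%) among senescence and p53 genes were assigned to Igfbp3 (5.50-fold), Cdkn2b (5.33-fold) and Lmnb1 (5.02-fold). The regions of Igfbp3 and of Cdkn2b, an inhibitor of cyclin-dependent kinases, lay 12201 and 57683 bp from the start. That of Lmnb1, lamin B1, lay inside the gene. The Notch, Wnt and TGF-β list had 5 of 199 (2.51%), with Smad3 at 7.13-fold, Tgfb2 at 6.82-fold and Wnt4 at 6.43-fold, and Jag2 and Bmpr1a at 5.24- and 5.02-fold. The Smad3 region lay 93854 bp from the gene's nearest start. The Tgfb2 region lay 12913 bp from its start and 2018 bp past the 3′ end of Rrp15. Chromatin regulators had 4 of 110 (3.64%), of which 3 were in Tet2, a dioxygenase of DNA demethylation (5.02- to 5.24-fold), and 1 in Crebbp, a histone acetyltransferase (5.37-fold). Heat shock genes had 2 of 67 (2.99%), in Hsph1 (11.9-fold) and 29194 bp from Hspa8 (6.56-fold). Immediate early genes had 2 of 156 (1.28%), 76017 bp from the start of Klf6 (6.60-fold) and 36720 bp from that of Fos (5.99-fold). NF-κB genes had 1 of 110 (0.909%), 9826 bp from Cebpd (6.69-fold). The ubiquitous genes had 0 of 56, with an exact upper bound of 6.38%.

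Markers of the cells that the sort could hold gave these counts. All 6 muscle stem cell markers (Pax7, Myf5, Itga7, Cd34, Vcam1 and Calcr) had a gene-end region in the aged and in the young list. Gene-end regions were present at 4 aged and 3 young of 4 fibro-adipogenic markers, 1 and 2 of 4 endothelial, 1 and 1 of 4 immune, 3 and 4 of 4 smooth muscle and pericyte, and 2 and 3 of 4 Schwann cell markers. Of these markers, Cdh5 (endothelial), Rgs5 (pericyte) and Sox10 (Schwann) had no region at a gene end in the aged list but had one in the young list, and Ly6a (fibro-adipogenic) the reverse. Pecam1, Tie1, Ptprc, Itgam, Cd3e and S100b had none in either list. None of these 5 lists of other cell types held a young-only region, in 0 of 21, 0 of 21, 0 of 1, 0 of 23 and 0 of 2 assigned young regions of at least 5-fold. The exact upper bounds were 16.1%, 16.1%, 97.5%, 14.8% and 84.2%, all above the 2.48% over all genes. These lists are therefore too small to be told apart from all genes. The part of other cell types in the young-only regions was not tested. Of 1005 miRNA hairpins in the RefSeq table, 6 lay within 1 kb of a young-only region. They were Mir7008, Mir669n, Mir7017, Mir7689, Mir6923 and Mir1224, and Mir7008 was overlapped by the region. Hairpins near other young regions were not counted, so whether 6 is few or many was not tested.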

How the data were processed

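The 2 deposited peak lists, for aged and young PGE2 cells, are in the narrowPeak layout of MACS. The submitters' processing notes name Bowtie2 and the builds mm10 and GRCm38. Which libraries were pooled per list, the caller's version and options, read filters and any shift of read ends: not given in the sources used here. For each summit the deposited values used are the authors' fold ratio over background, the −log10 q-value and the offset. Folds were whole multiples of 1 step within 0.02 of a step (100% below 50-fold), which gave the uniform background and the pileups. Such a background ignores local copy number, and library depths are unknown.

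The 265507 young rows merged into 131656 regions and the 215838 aged rows into 117284, with Python 3.11.15, pandas 2.3.3, numpy 2.4.6 and scipy 1.17.1, after the merging and distance steps were checked on simulated data. RefSeq tables of GRCm38.p6 gave 21896 protein-coding spans, 17491 of them with a start site, and all 315 entries of the 19 gene lists were found. Intervals are exact Clopper-Pearson at 95% over regions. The regions and lists were chosen with earlier results of these data known. Regions named are the 20 of highest fold, the 12 strongest at gene ends, the 8 widest, the 5 longest runs, genes with at least 3, up to 3 per list, those beside each limit and the 3 strongest mirrored ones. Others were chosen after their values were seen, and 1 region that the rule names is not reported here. Motifs were searched in promoter windows alone, as no genome sequence was used here. Alternatives were other fold, distance, significance and window limits, other merging and no weighting.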

Additional observations from a re-analysis of the deposited data

How the results depend on the processing

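The number of young-only regions depended on the limits. With a fold minimum of 4, 6 and 8 there were 4194, 673 and 108 regions (5.48%, 1.19% and 0.238% of young regions of that strength), with median widths of 299.5, 403 and 552.5 bp. The mirrored rule then gave 290, 30 and 4 aged regions. The share within 10 kb of another was 10.1%, 2.23% and 0 at these minimums, and 5.56% were at a gene end at a minimum of 8. Requiring no overlapping aged region gave 2.87%, none within 500 bp 2.69%, and none within 5 kb 1055 regions (1.63%) and 46 mirrored ones. Ignoring regions of the other list with a −log10 q under 5 gave 3.06%, a width of 371 bp and 5.91% within 10 kb of another. Gene-end windows of 500 bp and 2.5 kb gave 2.25% and 6.45%, and 18.2% lay within 50 kb of another. Without weighting by fold class the gene-end share differed from that of comparison regions by -17.9 percentage points, and with it by -3.08. The other 48 values, under these settings and with other merging, summit choice or autosomes alone, moved by less than their counting interval or 1.5 times. The motif search in whole regions was not run. No paired analysis was possible because each age has 1 list with no value per library, and no library could be left out. A region missing from the aged list may lie just under its threshold, and a list made from more fragments is longer; neither was tested.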
